A study of Mus musculus with 16 samples.

Results

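Repin1 and Nkx2-1 were examined as genes at which DNA methylation was higher in old-passage than in young-passage mouse embryonic stem cells (mESCs). They are 2 of the 33924 genes of the mm9 annotation, and their regions hold 64 of the 1320646 CpGs that any library covered. The regions, chr6:48547392-48548006 for Repin1 and chr12:57637436-57637867 for Nkx2-1, were selected on their rise in old- against young-passage cells in these same libraries, so that every value of old against young below is a description and carries no test. The question put to the other conditions was whether the rise was shared by mESC clones with a stable β-catenin, by mESCs that carried shRNA constructs, and by differentiating embryoid bodies (EBs).

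Methylation was measured by reduced representation bisulfite sequencing (RRBS) in 16 libraries of E14 mESCs, a 129/Ola line grown on gelatin in serum with LIF, with 2 biological replicates in each of 8 conditions. YP-mESCs were at passage 14, and OP-mESCs were the same line after prolonged passaging. OP-S33Y #1 and OP-S33Y #2 each came from a single clone of young cells that overexpressed S33Y-mutant β-catenin, which escapes degradation and keeps Wnt signalling active, and both were then cultured as the OP-mESCs had been, with no passage number in the labels of either. The shRNA conditions were derived from young-passage cells that carried a control construct (shCtrl) or shβcat #1, which silences β-catenin. They were profiled as mESCs and, per the study, at day 8 of differentiation as EBs, aggregates that differentiate without LIF into a mixture of cell types. The 2 S33Y clones are single clones, and no clone with wild-type β-catenin was analysed here.

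The libraries held 18919219 to 40519010 reads on 413282 to 1152971 CpGs, and every CpG in the files had at least 10 reads on a cytosine. OP-mESC replicate 2 covered the fewest CpGs of all libraries, including 11 of the 36 covered CpGs of the Repin1 region, which touches each OP-mESC value given here. At 10 reads a single CpG moves in steps of 10 percentage points in a library. A level between 0% and 100% can come from some of the cells or from some of the alleles of each cell, and these cannot be told apart in bulk DNA.

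Methylation of CpGs in a promoter CpG island usually goes with a silent gene, whereas most CpG islands of mESCs are unmethylated and the bodies of transcribed genes are commonly methylated. DNA methylation rises over much of the genome when mESCs leave pluripotency. Repin1 encodes a zinc finger protein with C2H2 fingers, named for its part in the initiation of DNA replication. Nkx2-1 encodes a homeodomain transcription factor that directs the development of thyroid, lung and ventral forebrain, and it is a developmental gene that undifferentiated mESCs keep silent.

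The Repin1 gene lies on the plus strand of chromosome 6 (48543882 to 48549081), and its region of 615 bp begins 3510 bp downstream of the start site. It holds 549 bases of the coding sequence of the last exon, followed by 66 bases of stop codon and 3′ UTR. The coding stretch chr6:48547517-48547804 of mm9, plus strand, runs from the first CpG that all 16 libraries covered and shows how densely CpGs occur among the zinc finger codons. It holds 25 CpGs in 288 bases, which are in capitals.

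Repin1 coding stretch: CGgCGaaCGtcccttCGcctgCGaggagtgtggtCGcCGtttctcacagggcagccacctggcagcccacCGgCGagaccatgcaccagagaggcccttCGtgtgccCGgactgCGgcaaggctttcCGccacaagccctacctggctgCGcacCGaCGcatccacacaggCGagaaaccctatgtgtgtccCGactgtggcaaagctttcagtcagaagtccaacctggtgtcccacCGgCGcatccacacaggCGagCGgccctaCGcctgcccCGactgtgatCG

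The Nkx2-1 gene lies on the minus strand of chromosome 12 (57632922 to 57637895). Its region of 432 bp lies wholly in the 5′ UTR of the first exon, 28 to 459 bp from the start site. The short piece chr12:57637656-57637685 of mm9, written on the plus strand, holds 3 CpGs in capitals, which were among the most methylated of the common CpGs in OP-mESCs. The first of them lies in a CCGG site, the sequence that MspI, the enzyme usual for RRBS, cuts.

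Nkx2-1 first exon piece: tggcCGgtCGctttgtggccaCGctggata

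At Repin1, methylation was intermediate in YP-mESCs, higher in OP-mESCs and in the shRNA mESCs, highest in EBs and lowest in the S33Y clones. The mean over the covered CpGs of the region was 34.2% and 31.5% in YP-mESC replicates 1 and 2, over 29 and 32 CpGs. In OP-mESCs it was 67.4% and 53.8%, over 30 and 11 CpGs. Both OP-mESC replicates were thus above both YP-mESC replicates, with 60.6% ± 9.64 (SD, n = 2) against 32.8% ± 1.92 (SD, n = 2), and they differed from each other by more than the replicates of any other condition.

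The S33Y clones did not share the rise. OP-S33Y #1 had 20.4% and 18.2%, and OP-S33Y #2 had 17.8% and 15.2%. All 4 clone libraries were therefore below both young-passage libraries. Between the clones the difference was not called, at -4.88 points for OP-S33Y #2 against OP-S33Y #1 over 23 CpGs covered in all 4 clone libraries (adjusted p = 0.298, quasi-binomial F test of summed reads across all windows, n = 2 per clone).

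The mESCs with the control construct were at the level of the OP-mESCs. They had 61.5% and 60.5%, a mean of 61.0% ± 0.698 (SD, n = 2). This was above both YP-mESC libraries and between the OP-mESC replicates. The mESCs with shβcat had 59.7% and 55.3%, a mean of 57.5% ± 3.09 (SD, n = 2). A level near 60% was hence not particular to OP-mESCs among the mESCs.

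EBs had the highest levels. EB shCtrl libraries had 84.3% and 87.3%, and EB shβcat libraries had 88.1% and 85.8%. All 4 EB libraries lay above each of the 12 mESC libraries. In order of their means the conditions were OP-S33Y #2, OP-S33Y #1, YP-mESC, mESC shβcat, OP-mESC, mESC shCtrl, EB shCtrl and EB shβcat. The OP-mESC libraries overlapped those of mESC shβcat and of mESC shCtrl, which did not overlap each other, and the libraries of the 2 EB conditions overlapped.

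**Figure D1:**
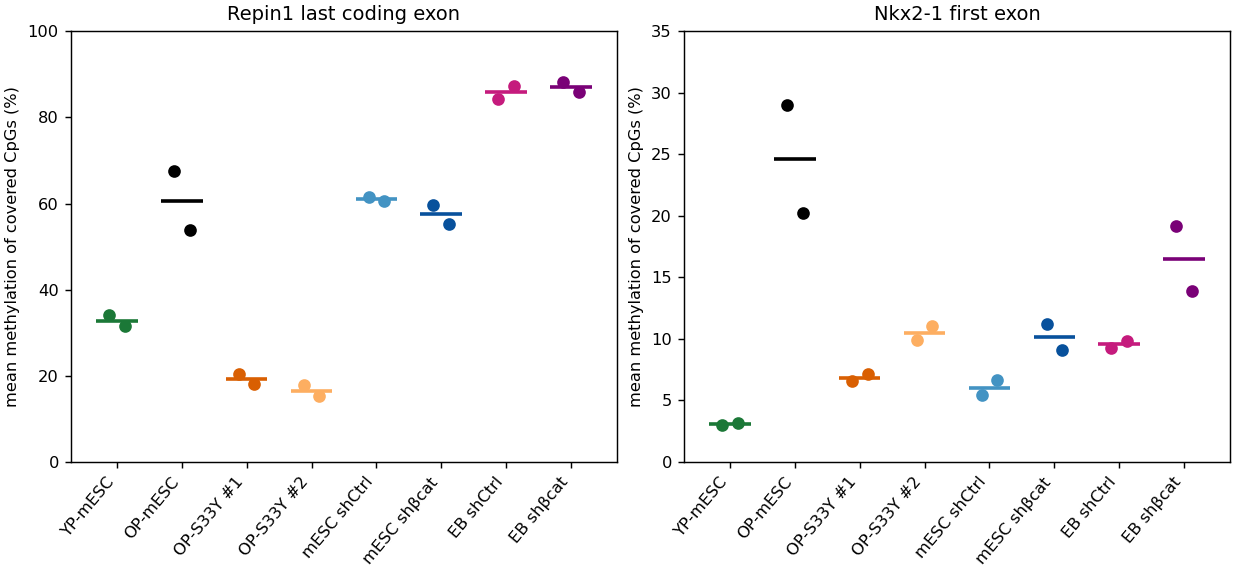
Mean methylation (%, y axis, different scales) of the covered CpGs of the Repin1 region (left) and the Nkx2-1 region (right) in each library (points, 2 per condition) with the mean of the condition (bar). Repin1 libraries fall into clone levels of 15.2% to 20.4%, young-passage levels of 31.5% and 34.2%, mESC levels of 53.8% to 67.4% and EB levels of 84.3% to 88.1%, whereas at Nkx2-1 the OP-mESC libraries, at 29% and 20.3%, are above all others.

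The common CpGs had the same directions. At the 11 CpGs of the Repin1 region covered in all 16 libraries, the mean was higher than in YP-mESCs at 11 of 11 in OP-mESCs, by 11.5 to 39.5 points with a median of 23.5. It was lower at 11 of 11 in both clones, with a median difference of -20.9 points in OP-S33Y #1 and -27.4 points in OP-S33Y #2. Over the wider sets compared with YP-mESCs, 20 of 23 CpGs were lower and 3 higher in OP-S33Y #1, the most at 48547666 with 40.4% against 20%, and 29 of 29 were lower in OP-S33Y #2. In mESC shCtrl it was higher at 11 of 11, with a median of 25.6 points, and in mESC shβcat at 11 of 11, with a median of 16.3 points. In the EBs the median difference was 49.6 points with shCtrl and 50.2 points with shβcat, and every one of these CpGs was higher than in OP-mESCs. On these 11 CpGs alone the OP-mESC level was 59.3% ± 7.81 (SD, n = 2) and the YP-mESC level 36.5% ± 7.37 (SD, n = 2), so that the difference shrank from 27.8 points over all covered CpGs to 22.9 points.

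The single CpGs named below were chosen after their values were seen. The study states a rule for regions that lost methylation, a decrease above 25% over at least 10 CpGs with at least 10 reads. Its methods give no rule for regions that gained methylation, and rises of more than 25 points were counted here. Of the 11 Repin1 CpGs covered in all 4 young and old libraries, 4 rose by more than 25 points, the closest on either side being 26.9 points at 48547793 and 24.2 points at 48547538. Of the 28 covered in at least 1 library of each group, 21 did. At Nkx2-1, 7 of 21 CpGs covered in all 4 libraries rose by more than 25 points, and the closest on either side were 27.7 points at 57637730 and 18.8 points at 57637510.

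A CpG at 48547587, in the coding sequence, is given with its reads as the extreme of the 11 common CpGs. Its rise from YP-mESCs to OP-mESCs was the largest, 39.5 points against a median of 23.5. Each clone also had its lowest mean there, 8.93% in OP-S33Y #1 and 4% in OP-S33Y #2. It was methylated in 29.3% of 41 and 28.0% of 25 reads in YP-mESCs, and in 73.7% of 19 and 62.5% of 48 reads in OP-mESCs. OP-S33Y #1 had 0% of 23 and 17.9% of 28 reads, and OP-S33Y #2 had 8.0% of 25 and 0% of 21 reads. The mESC shCtrl libraries had 70.4% of 54 and 50% of 32 reads, the EB shCtrl libraries 78.1% of 32 and 85.2% of 81. At this CpG replicates thus differed by less than the distance between the clones and the OP-mESCs.

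Single CpGs were also compared with YP-mESCs by the quasi-binomial test, as a description, with calls at a difference above 25 points and an adjusted p below 0.05. In OP-mESCs 4 of 11 Repin1 CpGs were called higher, where 0.0711% of all CpGs compared were, and this contrast was used by the selection. In OP-S33Y #1, 0 of 23 were called higher (0.14% of all CpGs) and 1 lower (0.132%), and in OP-S33Y #2, 0 of 29 were called higher (0.11%) and 5 lower (0.69%). At an unadjusted p under 0.05, 0 were higher and 14 lower in OP-S33Y #1, and 0 higher and 18 lower in OP-S33Y #2. In mESC shCtrl 12 of 29 were called higher (2.57% of all CpGs), and in mESC shβcat 12 of 29 (3.54%). In EB shCtrl all 29 of the 29 compared were called higher (10.1%), as were all 29 in EB shβcat (11.2%). These counts all share the YP-mESC libraries that entered the selection, and no test of the member is read from them.

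**Figure D2:**
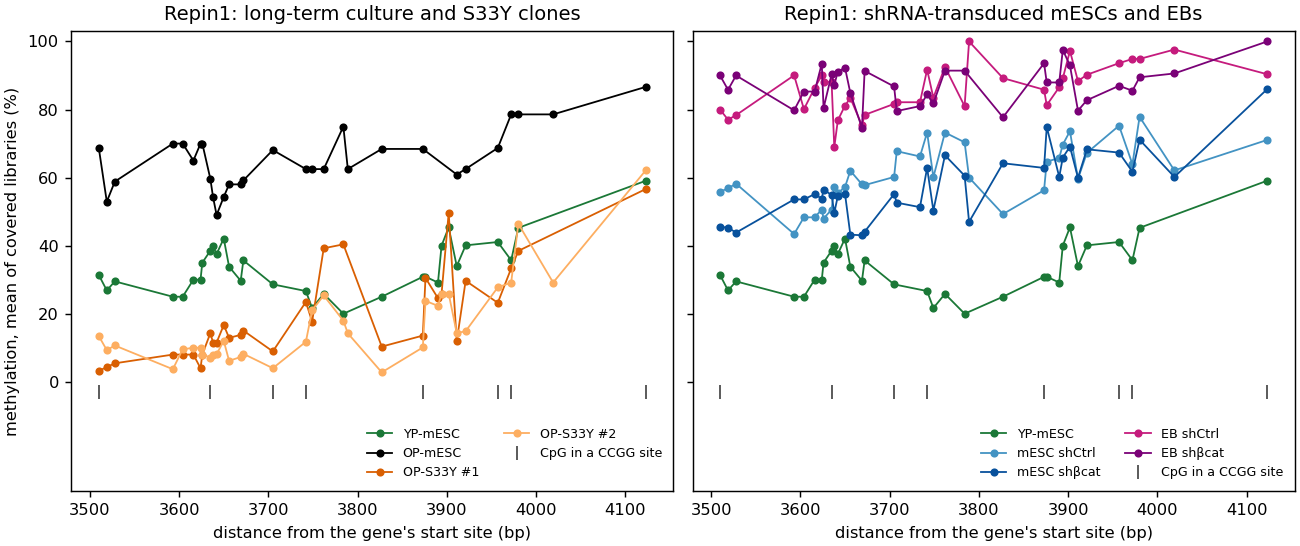
Methylation (%, mean of the libraries that cover the CpG) at each covered CpG of the Repin1 region against its distance from the start site (bp), in the passaged cells and S33Y clones (left) and the shRNA-transduced mESCs and EBs (right), with YP-mESCs in both panels and ticks at CpGs in CCGG sites. Over most of the region the clones lie below YP-mESCs, the OP-mESCs and shRNA mESCs above them, and the EBs highest. The curves of the clones cross each other, as do those of the shRNA mESCs and those of the EBs. A clone lies above YP-mESCs at a few CpGs, and both clones approach YP-mESCs towards the 3′ end.

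The clones were not evenly low over the region. In the part upstream of its midpoint, OP-S33Y #1 had 14.7% ± 0.824 and OP-S33Y #2 10.8% ± 4.57 against 30.6% ± 5.18 in YP-mESCs (SD, n = 2 each). In the part downstream of the midpoint they had 27.1% ± 5.17 and 25.7% ± 2.63 against 36.4% ± 3.56. At the last CpG, 48548005 in the 3′ UTR, YP-mESC replicate 2 had 59.1%, OP-S33Y #1 replicate 1 had 56.7%, and the OP-S33Y #2 libraries had 68.2% and 56.2%. The YP-mESC and clone values overlapped there, while OP-mESC replicate 1 had 86.7%.

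The comparison of EB shCtrl with mESC shCtrl used no young- or old-passage library and could be tested. Over 35 CpGs covered in all 4 libraries, methylation of Repin1 was 24.6 points higher in EBs (adjusted p = 1.65e-11, quasi-binomial F test of summed reads, n = 2 per condition). Of all windows and regions tested, 28.3% were called higher in EBs. Of the 35 CpGs, 35 had a higher mean in EBs and 11 were called higher, where 6.11% of all CpGs were, and 28 were higher at an unadjusted p under 0.05. The count of called CpGs fell to 4 without mESC shCtrl replicate 2 and to 4 without EB shCtrl replicate 2, while the region stayed called.

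No difference with β-catenin silenced was called at Repin1 in mESCs or EBs. In mESCs the difference of shβcat from shCtrl was -3.21 points over 35 CpGs (adjusted p = 0.505, quasi-binomial F test across all windows), and 0 of 35 CpGs were called, where 0.0541% of all CpGs were called higher. In EBs it was 1.33 points higher over 34 CpGs (adjusted p = 0.902), and 0 of 34 CpGs were called, where 0.0436% were called higher. At an unadjusted p under 0.05, 0 CpGs differed in mESCs and 1 was higher in EBs, and Fisher's exact test of summed reads also called 0 in each. The difference between the silencing effects in EBs and in mESCs was 5.07 points (adjusted p = 0.847). Leaving out each library in turn gave differences of -5.17 to -1.25 points in mESCs and -0.393 to 3.05 points in EBs, small beside the 24.6 points between EBs and mESCs. The test of the clones against each other called 0 of 23 CpGs (0.0237% of all CpGs were called higher and 0.26% lower in OP-S33Y #2), with 0 higher and 2 lower at an unadjusted p under 0.05 and 0 by Fisher's exact test.

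The flanks of Repin1 show how far the pattern reached. Around the start site, from 48543743 to 48544351, the mean over covered CpGs was 1.06% to 16.3% in the 16 libraries, with YP-mESC replicate 1 at 11.6% and OP-mESCs at 1.96% and 3.12%. Single CpGs there reached up to 80.6%, in EB shCtrl replicate 2. This CpG-rich block at the promoter was on average no higher in OP-mESCs than in YP-mESCs. Between the promoter block and the coding sequence, from 48545199 to 48545336, 2 to 3 CpGs were at 12.9% and 37.8% in YP-mESCs and at 52.9% in OP-mESC replicate 1. They were at 15.4% to 33.3% in the 3 clone libraries that covered them, and at 60.6% to 67.7% in EBs. Within the coding exon, from 48546490 to 48546814, YP-mESC replicate 1 had 45.4%, OP-S33Y #1 replicate 2 had 38.4%, the 3 shRNA mESC libraries with at least 2 CpGs there had 78.8% to 83.6%, and EBs had 91.0% to 100%. No OP-mESC library covered this block. In both blocks the EBs lay above the young-passage and clone libraries, as in the region.

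Beyond the 3′ end of the gene the conditions had another order. A block of 24 covered CpGs from 48551904 to 48552200, 2823 bp past the end of Repin1 and in no annotated gene, averaged 0.595% to 3.88% in the 12 mESC libraries and 4.73% to 9.09% in the 4 EB libraries. OP-mESCs had 1.94% ± 1.23 there and YP-mESCs 3.25% ± 0.885 (SD, n = 2). The block after it, 48553744 to 48553807, held only 2 covered CpGs, both in CCGG sites, and averaged 80.6% to 97.7% in every library. Both OP-mESC libraries were there below both YP-mESC libraries, at 82.0% ± 1.85 against 86.1% ± 0.981 (SD, n = 2), and mESC shCtrl and mESC shβcat were above them, at 90.6% ± 1.27 and 96.8% ± 1.18. No OP-mESC library was above the range of the other mESC libraries in either block. The other gene of the flanks, Gm5111, had no covered CpG.

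**Figure D3:**
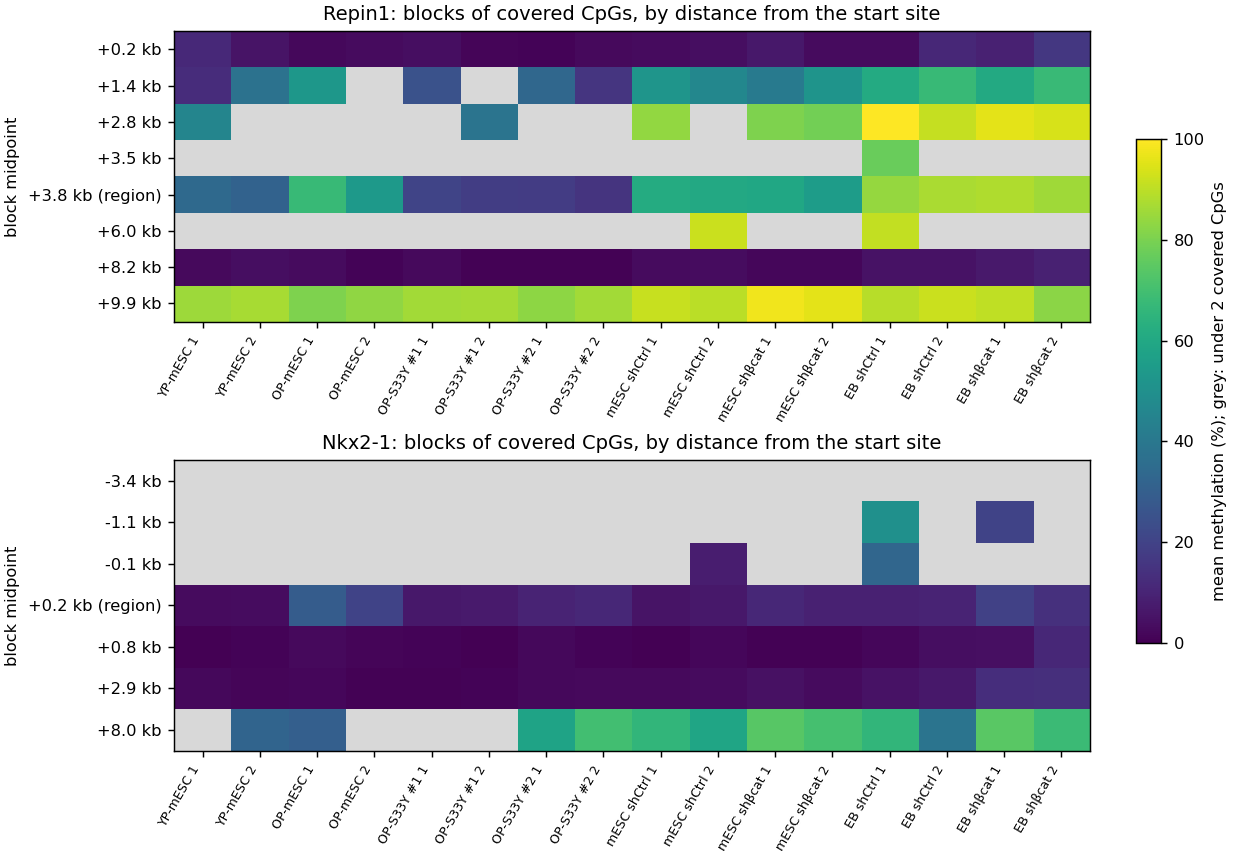
Mean methylation (%, colour, 0 to 100) of blocks of covered CpGs in the regions and their 10 kb flanks, with rows ordered by distance from the start site (kb) and columns by library (numbers are replicates). Grey marks blocks with under 2 covered CpGs in a library. EBs are the highest at +1.4 kb and +2.8 kb as at the Repin1 region, while the blocks at +0.2 kb and +8.2 kb are low and that at +9.9 kb is high throughout.

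At Nkx2-1, OP-mESCs had the highest methylation of the 8 conditions, and YP-mESCs the lowest. The mean over the covered CpGs was 2.98% and 3.19% in YP-mESCs, over 28 CpGs each, and 29% and 20.3% in OP-mESCs, over 25 and 21 CpGs. On the 21 CpGs covered in all 16 libraries it was 21.4% and 20.3% in OP-mESCs, so that the replicates were closer when they were read on the same CpGs. The difference of the means was 21.5 points over all covered CpGs and 18.1 points over the common ones.

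The clones rose far less than the OP-mESCs. OP-S33Y #1 had 6.55% and 7.14%, and OP-S33Y #2 had 9.93% and 11%. All 4 lay above both YP-mESC libraries and below both OP-mESC libraries. OP-S33Y #2 was 3.95 points higher than OP-S33Y #1 over 22 CpGs (adjusted p = 0.228, quasi-binomial F test across all windows, n = 2 per clone). Of the CpGs, 0 of 22 were called, where 0.0237% of all CpGs were called higher and 0.26% lower. At an unadjusted p under 0.05, 1 was higher and 0 lower, and Fisher's exact test called 0.

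The shRNA libraries were also between young and old. The mESC shCtrl libraries had 5.40% and 6.63%, and the mESC shβcat libraries 11.2% and 9.11%. EB shCtrl libraries had 9.26% and 9.86%, and EB shβcat libraries 19.1% and 13.9%. In order of their means the conditions were YP-mESC, mESC shCtrl, OP-S33Y #1, EB shCtrl, mESC shβcat, OP-S33Y #2, EB shβcat and OP-mESC. The libraries of mESC shCtrl and OP-S33Y #1 overlapped, and those of mESC shβcat overlapped both EB shCtrl and OP-S33Y #2, which did not overlap each other. Unlike at Repin1, mESC shCtrl was close to YP-mESCs and EBs were below OP-mESCs.

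The rise in OP-mESCs was uneven within the exon. In the part nearer the start site, from 57637652 to 57637867, OP-mESCs had 55.6% and 49.8%, over 9 and 5 CpGs, against 4.09% and 7.80% in YP-mESCs. In the part farther from it, from 57637436 to 57637651, they had 14% and 11% against 2.46% and 1.01%. The OP-mESC libraries were thus at 52.7% ± 4.10 and 12.5% ± 2.11 (SD, n = 2) in the 2 parts. The clones had the same direction with smaller values, with 11.1% ± 0.611 against 5.10% ± 1.30 in OP-S33Y #1 and 18.2% ± 1.58 against 6.16% ± 2.12 in OP-S33Y #2. In EB shβcat the parts were at 21.9% ± 8.07 and 13.9% ± 1.77, with replicates at 27.6% and 16.2% in the nearer part.

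The 3 CpGs of the printed piece were at 52.8%, 55.8% and 54.3% in OP-mESCs (57637660, 57637664 and 57637677) against 11.8%, 7.29% and 4.35% in YP-mESCs. The 3 CpGs closest to the start site, 29 to 72 bp from it, had enough reads in only 1 of the OP-mESC libraries, replicate 1. There 9 of 12, 10 of 12 and 9 of 12 reads were methylated, the largest share being 83.3% with an exact 95% interval of 51.6% to 97.9%. At the same CpGs YP-mESC replicate 1 had 1, 0 and 0 methylated reads of 11, and YP-mESC replicate 2 had 3, 4 and 2 of 23. The intervals cover counting error only. A CpG at 57637492 had 0% in 15 of the 16 libraries, OP-mESCs included, and 5.0% of 40 reads in EB shβcat replicate 2. Some other CpGs also differed little, with OP-mESCs at 0.962% at 57637464 and 6% at 57637570, against 1.02% and 5% in YP-mESCs.

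**Figure D4:**
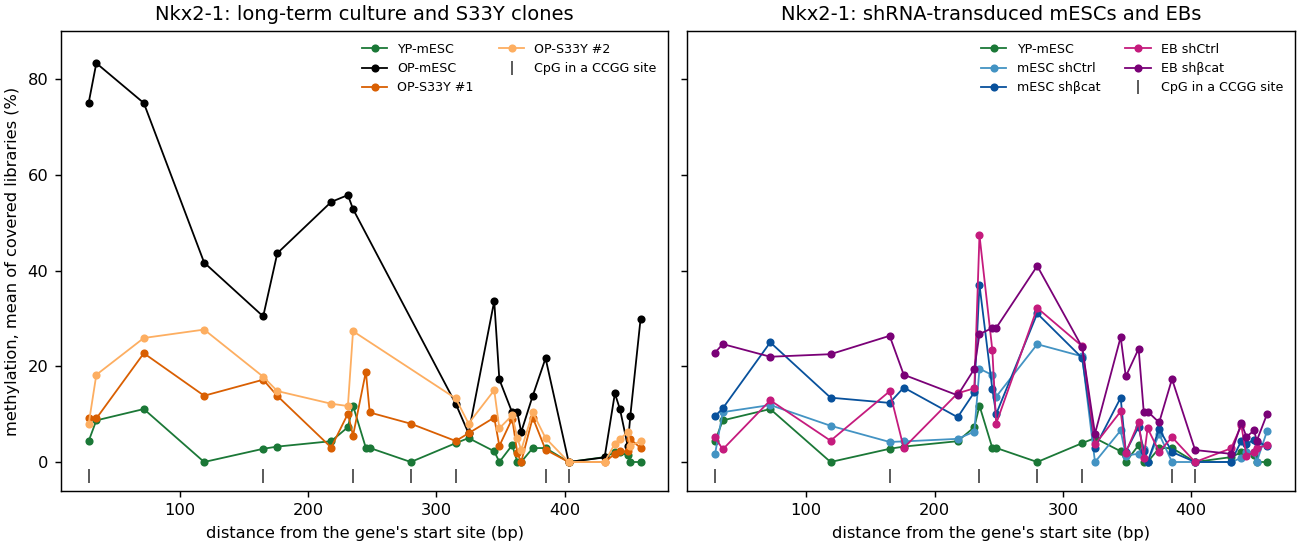
Methylation (%, mean of the libraries that cover the CpG) at each covered CpG of the Nkx2-1 region against its distance from the start site (bp), in the passaged cells and S33Y clones (left) and the shRNA-transduced mESCs and EBs (right), with YP-mESCs in both panels and ticks at CpGs in CCGG sites. OP-mESCs reach 83.3% near the start site, where the highest value of any other condition within 119 bp is 27.7%, and the highest shRNA and EB values lie at ticks.

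Of the CpGs compared with YP-mESCs by the quasi-binomial test, 7 of 21 were called higher in OP-mESCs (0.0711% of all CpGs), the contrast used by the selection. Calls were 0 of 25 in OP-S33Y #1 (0.14%) and 1 of 25 in OP-S33Y #2 (0.11%). In mESC shCtrl 0 of 26 were called higher (2.57%) and in mESC shβcat 2 of 28 (3.54%). EB shCtrl had 2 of 28 (10.1%) and EB shβcat 1 of 26 (11.2%), so that the EB counts did not exceed the background. As at Repin1, all counts against YP-mESCs share libraries that entered the selection, and no test is read from them. At an unadjusted p under 0.05, 14 of 21 were higher in OP-mESCs, 8 of 25 in OP-S33Y #1 and 7 in OP-S33Y #2. Such CpGs were 4 of 26 in mESC shCtrl and 8 of 28 in mESC shβcat. They were 7 of 28 in EB shCtrl and 16 of 26 in EB shβcat. At the 21 common CpGs, the mean was above that of YP-mESCs at 19 in OP-mESCs, 14 in OP-S33Y #1, 19 in OP-S33Y #2, 11 in mESC shCtrl, 16 in mESC shβcat, 16 in EB shCtrl and 21 in EB shβcat. The median difference was 10.9 points in OP-mESCs and 10.4 points in EB shβcat, and 5 points or less in each of the others. EB shβcat thus had a higher mean than YP-mESCs at every common CpG but at none by more than 25 points, where OP-mESCs had 7 such CpGs.

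In the comparisons that used no young- or old-passage library, small differences at Nkx2-1 passed the region test. EB shCtrl was 3.43 points higher than mESC shCtrl over 26 CpGs (adjusted p = 0.00494, quasi-binomial F test of summed reads, n = 2 per condition), in a comparison in which 28.3% of windows and regions were called higher. It called 1 of 26 CpGs higher, where 6.11% of all CpGs were, so that the count did not stand out from the background. This CpG, at 57637660, lies in the printed piece and had 12.5% and 26.5% in mESC shCtrl and 47.1% and 47.7% in EB shCtrl. The region was no longer called without mESC shCtrl replicate 1 (2.94 points, adjusted p = 0.186) or without the CpGs in CCGG sites (1.71 points, adjusted p = 0.195), and that CpG lies in such a site. The CpG was not called without mESC shCtrl replicate 1 or without either EB shCtrl replicate.

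With β-catenin silenced, Nkx2-1 was 4.29 points higher in mESCs over 26 CpGs (adjusted p = 0.0225, quasi-binomial F test across all windows), where 1.38% of windows and regions were called higher. Without mESC shCtrl replicate 1 it was 3.51 points (adjusted p = 0.322), and without mESC shβcat replicate 1 it was 3.75 points (adjusted p = 0.299), so that the call rested on these libraries. It was also lost at a minimum of 20 reads (3.80 points), with the strands kept separate (4.03 points) and without the CpGs in CCGG sites (3.68 points). In EBs the region was 7.08 points higher with shβcat over 26 CpGs (adjusted p = 0.0366), where 4.5% of windows and regions were called higher. This call was lost without EB shCtrl replicate 1 (6.77 points, adjusted p = 0.121), EB shCtrl replicate 2 (7.39 points, adjusted p = 0.239) or EB shβcat replicate 1 (4.78 points, adjusted p = 0.193), and it was kept without EB shβcat replicate 2 (9.59 points, adjusted p = 0.00063). The 4 values were positive in each case.

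At single CpGs, silencing called 0 of 26 in mESCs, where 0.0541% of all CpGs were called higher, and 0 of 26 in EBs, where 0.0436% were. Fisher's exact test also called 0 in each. At an unadjusted p under 0.05, 3 were higher and 0 lower in mESCs, and 10 were higher and 1 lower in EBs. The CpG at 57637550, which was among these, had 8.0% and 13.2% with shCtrl and 28.1% and 24.1% with shβcat in EBs. The difference between the silencing effects in EBs and in mESCs was 2.79 points (adjusted p = 0.887). At single CpGs this difference called 0 in either region, where 0.0257% of all CpGs were called higher and 0.0337% lower, with 1 higher and 1 lower at Repin1 and 0 higher and 1 lower at Nkx2-1 at an unadjusted p under 0.05. Over the CpGs that each library covered, the replicates of EB shβcat, at 19.1% and 13.9%, came nearest the OP-mESC level. The lower OP-mESC library had 20.3%, but the covered CpGs differed. On the 21 CpGs covered in all 16 libraries EB shβcat had 13.7% ± 1.88 and OP-mESCs 20.8% ± 0.81 (SD, n = 2).

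On the side of the region away from the start site, the blocks within the Nkx2-1 gene were low in OP-mESCs. The block next to the region within the transcribed part, from 57636800 to 57637433, was at 2.6% and 1.43% in OP-mESCs and at 0.284% and 0.801% in YP-mESCs. The block over the coding exons, from 57634175 to 57635902, was at 1.76% and 0.672% in OP-mESCs and at 2.10% and 1.27% in YP-mESCs. In EB shβcat the same blocks were at 3.93% and 11.3% and at 13.0% and 13.5%, and in EB shCtrl at 1.71% and 3.80% and at 4.97% and 6.5%. OP-mESCs were therefore at no more than 2.6% in these blocks, whereas EB shβcat was above 10% over the coding exons in both libraries. On the start-site side, no OP-mESC or YP-mESC library had at least 2 covered CpGs in a block. In the nearest block there, from 57637872 to 57638093, mESC shCtrl had 7.85% and EB shCtrl 33.1%, in 1 library each. How far the rise in OP-mESCs reached on that side was therefore not measured. Downstream of the gene, from 57629552 to 57630312, methylation was 32.3% in YP-mESC replicate 2 and 30.1% in OP-mESC replicate 1, the only libraries of those conditions with CpGs there, and 38.4% to 74.2% in the 10 other libraries that had them.

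Some CpGs in CCGG sites of the Nkx2-1 region were higher in the shRNA libraries. At 57637580, the 8 shRNA libraries had 17.5% to 26.7%, YP-mESCs and OP-S33Y #1 had 3.2% to 5.6%, OP-mESCs had 8.3% and 16%, and OP-S33Y #2 had 17.9% and 8.7%. At 57637615 the 8 shRNA libraries had 18.2% to 41.4%, against 0% in both YP-mESC libraries and 0% and 16% in OP-S33Y #1. The 7 such CpGs averaged 10.3% ± 3.18 in mESC shCtrl and 18.4% ± 1.25 in EB shCtrl, where the other 21 CpGs averaged 4.54% ± 0.163 and 6.61% ± 0.144 (SD, n = 2). The difference between the kinds was carried by 3 of the 7, at 57637580, 57637615 and 57637660, which had 22.1%, 24.6% and 19.5% in mESC shCtrl, while the other 4 had 0% to 4.2%. In OP-mESCs both kinds were higher than in YP-mESCs, at 27.7% ± 7.15 and 23.7% ± 5.85. At Repin1 the 8 CCGG CpGs and the other 28 had similar levels, such as 63.3% and 60.3% in mESC shCtrl. In the block past the 3′ end of Repin1, however, CCGG CpGs had 10.9% ± 4.24 in mESC shCtrl and 11.5% ± 4.08 in EB shCtrl, against 2.51% ± 1.11 in YP-mESCs, and the other CpGs there had 1.20% ± 1.42, 3.09% ± 0.872 and 3.43% ± 0.846 (SD, n = 2). Whether the shRNA libraries were prepared in another way is not given in the sources used here, and the part of the cut site in these levels was not tested.

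**Figure D5:**
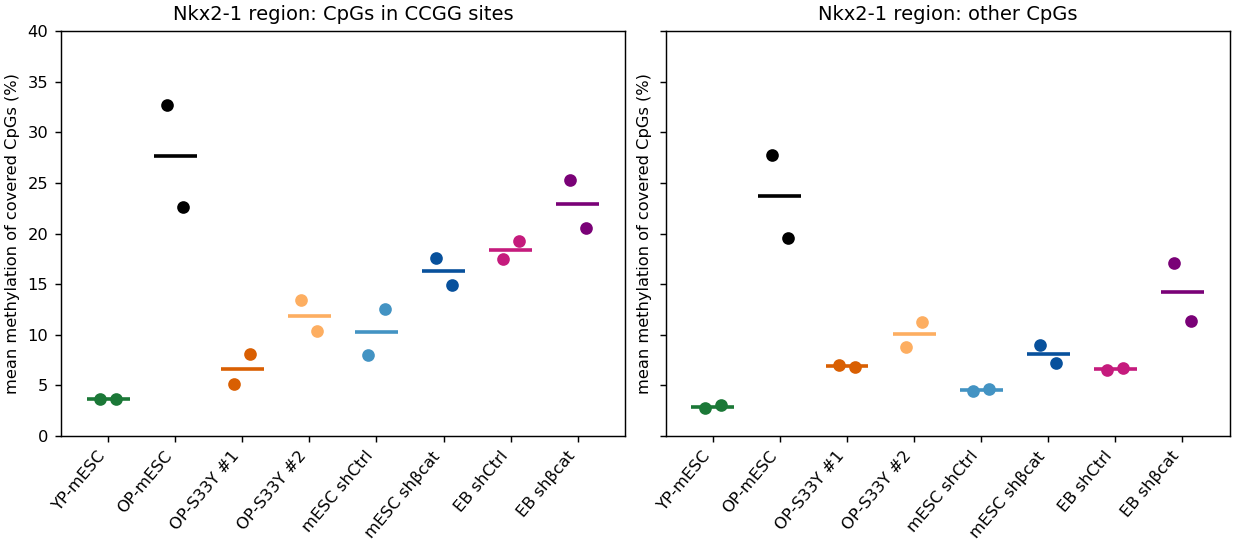
Mean methylation (%, y axis) of the CpGs of the Nkx2-1 region that lie in CCGG sites (left) and of its other CpGs (right), in each library (points, 2 per condition) with the mean of the condition (bar). EB shCtrl is at 18.4% in the sites and 6.61% outside them, while OP-mESCs are at 27.7% and 23.7%.

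Genes of the same families or neighbourhoods were read near their start sites, as lists that were chosen with earlier results known. Of 11 zinc finger genes of chromosome 6 near Repin1, 8 had at least 5 CpGs within 1 kb of the start site in EB shCtrl against mESC shCtrl, and 2 had a CpG called higher and 0 lower. Of all 14069 genes that could be read in this way, 18.9% had a CpG called higher and 1.19% one called lower. Zfp783 rose from 7.50% to 28.8% over 48 CpGs, 14 of which were called higher, and Zfp282 had 1 called CpG of 55 with a mean of 2.40% against 1.60%. The next largest difference, 2.20 points, was at Zfp786. The median over the 8 genes was 0.568 points, and over all CpGs tested it was 0. With silencing, Zfp282 had 1 CpG called higher in mESCs (2.33% of all genes had one), no gene of the list had a called CpG in EBs (1.14% higher and 0.432% lower) or between the clones (0.0862% higher and 0.368% lower), and the difference between the silencing effects called 1 CpG of Zfp282 lower in EBs (1.1%). In OP-mESCs against YP-mESCs, 0 of 8 had a CpG called higher (0.104% of all genes) and 1 had a CpG called lower (2.26%), Zfp783, at 0.684% against 7.50%.

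Of 16 NK2 homeobox genes and genes that act with or lie beside Nkx2-1, 12 could be read in the EB comparison and 2 had a CpG called higher, against the 18.9% of all genes. Nkx2-5, a regulator of heart development, had 54.6% in EB shCtrl and 38.4% in mESC shCtrl over 13 CpGs, with 1 CpG called higher, and Foxa1, a factor of endoderm, had 1 called of 51 with 4.4% and 3.71%. Pax9, which lies near Nkx2-1 on chromosome 12, had 18.4% and 11.9% with no CpG called. The median over the 12 genes was 1.91 points. With silencing in EBs the largest differences were 11.3 points at Pax9 and 11.1 points at Lhx8, a factor of forebrain neurons, and the median was 2.09 points. There 0 of 11 genes held a called CpG, where 1.14% of all genes had one called higher and 0.432% one called lower. In mESCs silencing gave Foxa1 1 CpG called higher, where 2.33% of all genes had one. Its mean within 1 kb of the start site was nonetheless lower, at 3.2% against 3.5%. The largest differences were 6.67 points at Nkx2-5 and 3.75 points at Shh. Between the clones, 0 of 11 genes had a called CpG (0.0862% of all genes higher and 0.368% lower), and Pax9 differed most, by 3.0 points. In OP-mESCs against YP-mESCs, 0 of 10 genes had a called CpG in either direction (0.104% of all genes higher and 2.26% lower).

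Windows of 500 bp on other chromosomes were ranked by how closely their 8 condition means followed those of each region, over CpGs covered in all libraries, as a description in which the windows share the libraries. Only windows of at least 5 such CpGs whose condition means spanned more than 15 points were ranked. For Repin1, 4875 windows were compared, the median Pearson's r was 0.689, and 25 windows (0.513%) had r above 0.9. The 5 closest overlapped Pcnt (r = 0.951), Nab2 with Gm16229 (0.946), Lrrc8d (0.945), Auts2 (0.942) and Ptk7 with Gm16736 (0.940). At Lrrc8d the level was 26.3% in YP-mESCs, 53.2% in OP-mESCs, 24.2% and 17.7% in the clones, 57.3% in mESC shCtrl and 69.0% in EB shCtrl. The other named windows differed less between YP-mESCs and OP-mESCs, with 77.9% and 86.1% at Pcnt and 43.9% and 44.6% at Nab2. Auts2 had 44.5% and 49.6%, and Ptk7 had the opposite direction, with 56.5% and 53.1%. A high r thus did not require a rise in OP-mESCs. For Nkx2-1, 4905 windows were compared with a median r of -0.0128, and 0 had r above 0.9. The closest, at Tgfbr3, had r of 0.780 with 75.7% in YP-mESCs and 91.2% in OP-mESCs, followed by Fto (0.731), Robo4 (0.564), a window on chromosome 5 with no start site within 5 kb (0.519) and 1700054N08Rik with Gm20388 (0.508). Within this limit, windows with r above 0.9 were present for Repin1 and absent for Nkx2-1.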

How the data were processed

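RRBS libraries were made by the study with the NuGEN Ovation kits and sequenced. Per the labels and the study's methods, the authors trimmed reads with CASAVA 1.8.2 and Trim Galore 0.2.8, aligned them to mm9 with Bismark 0.7.9 and deposited, for each CpG cytosine, the count of covering reads and their methylated percent, unnormalized and not pooled. Each cytosine had at least 10 reads, and 100% lay on a CpG of mm9.

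Methylated reads were computed from both columns, and strands were summed. A level was the mean percentage of the covered CpGs (at least 2). Single CpGs were compared with a quasi-binomial chi-square test with 1 shared overdispersion, over CpGs covered in all libraries compared, and called at a Benjamini-Hochberg adjusted p under 0.05 and a difference over 25 points. Regions were tested on summed reads together with all 500-bp windows of at least 5 CpGs, with an F test and a dispersion per window squeezed to a trend by the empirical Bayes method of limma, recoded in Python. Both were tested on simulated data. A read that spans several CpGs counts at each of them. An exact permutation test of 2 against 2 libraries cannot go below 0.33. Gene models came from GENCODE M1, and 10 of the 11 zinc finger genes were found in it. Sequences were read from the NCBIM37 genome.

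The regions, lists and tests were chosen with earlier results of these data known. Genes were named by rule, namely the members, genes in the flanks, list genes with a called CpG or among the 2 largest differences, and the 5 most alike windows. Labels share replicate numbers, but same-numbered libraries did not deviate together (r = -0.0343 to 0.0528). The work used matplotlib 3.10.9, numba 0.67.0, numpy 2.4.6, pandas 2.3.3 and scipy 1.17.1 under Python 3.11.15.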

Additional observations from a re-analysis of the deposited data

How the results depend on the processing

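Of 364 alternative values for 34 results, 320 kept their direction and side of the threshold or moved by less than the replicates' spread. The CpGs in CCGG sites were left out as an alternative chosen after seeing the data. For EB shCtrl against mESC shCtrl, called Repin1 CpGs numbered 17 at a difference over 15 points and 5 at a minimum of 20 reads, and 4 to 10 with each library left out; called Nkx2-1 CpGs were 0 without CCGG CpGs, and 0 to 1 with each library left out. The Nkx2-1 region there was at 1.71 points without CCGG CpGs and 2.94 to 3.74 points with each library left out. With shβcat in mESCs, the Nkx2-1 call was lost at a minimum of 20 reads (3.80 points), with separate strands (4.03 points) and without CCGG CpGs (3.68 points), with 3.51 to 4.84 points when each library was left out. In EBs the Nkx2-1 difference was 4.78 to 9.59 points with each library left out, and 8.01 points without CCGG CpGs (adjusted p = 0.00479, quasi-binomial F test). The Repin1 difference there, which was not called, turned to -1.17 points at a minimum of 20 reads and was -0.393 to 3.05 points with each library left out. Between the clones, 1 Repin1 CpG was called with separate strands. The cause was not tested.

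Differences of level from YP-mESCs moved mostly on the CpGs common to all libraries, to -21.0 (OP-S33Y #1), -25.7 (OP-S33Y #2), 23.6 (mESC shCtrl), 17.7 (mESC shβcat), 45.9 (EB shCtrl) and 49.7 points (EB shβcat) at Repin1, and to 2.52, 6.0, 1.64, 5.33 and 5.84 points at Nkx2-1 in the same order up to EB shCtrl. At a minimum of 20 reads Repin1 gave -17.3, -20.6 and 48.5 points in OP-S33Y #1, OP-S33Y #2 and EB shβcat, and Nkx2-1 6.18 points in OP-S33Y #2. Read-weighted levels gave -19.5 points in OP-S33Y #2 and 50.7 points in EB shβcat at Repin1. Widening the Nkx2-1 region gave 6.01 points in OP-S33Y #2 and 7.61 points in EB shCtrl, separate strands 7.34 points in EB shCtrl, and leaving out CCGG CpGs 1.65, 5.21 and 3.72 points in mESC shCtrl, mESC shβcat and EB shCtrl.

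With the replicate number as a block no region gained or lost its call, the paired fit giving, for example, adjusted p = 1.9e-25 for Repin1 in EBs against mESCs and 0.00029 for Nkx2-1 with shβcat in EBs. Called Repin1 CpGs in EBs against mESCs numbered 10 with the block and 11 without it, and the other counts of called CpGs were the same. A library left alone in its group was assumed to vary like the others. Depth limits single CpGs, which at 10 reads move in steps of 10 points in a library.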
